A study of Mus musculus with 18 samples.

Results

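The proteasome is the large protease that degrades proteins tagged with ubiquitin. Its barrel-shaped catalytic core is built from alpha and beta subunits, 3 of which cut peptide bonds. A regulatory particle docks on the core: a ring of ATPases in its base unfolds the substrate, and a lid removes the ubiquitin. Other proteins open the core as activators or help to assemble it. When proteasome capacity is short, the transcription factor NRF1, encoded by Nfe2l1, raises the genes of most subunits together, and in mammalian cells oxidative stress is known to affect assembly of the complex.

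The genes described here are those whose platform symbol begins with Psma, Psmb, Psmc, Psmd, Psme, Psmf or Psmg followed by a number. That rule matched 45 of the 16593 genes with a symbol on the array, and 40 of the 45 passed the detection filter, which 8922 genes passed in all. To pass, a probe needed a detection p-value below 0.01 on 2 or more arrays. Of the 40, 2 matched by name only: Psmc3ip is a recombination factor that binds the protein of Psmc3, and Psme3ip1 interacts with the activator encoded by Psme3. This left 38 genes of the proteasome itself.

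RNA came from cultured mouse neurons, measured on Illumina bead arrays. Adaptaquin is an inhibitor of the HIF prolyl hydroxylases, and homocysteic acid (HCA) is a glutamate analogue that depletes glutathione and kills neurons by oxidative stress. The 6 groups were HCA alone, HCA with 0.1 µM adaptaquin, HCA with 1 µM adaptaquin, 0.1 µM adaptaquin alone, 1 µM adaptaquin alone and untreated neurons. Each group had 3 arrays, except that the third HCA-only array is called an outlier in its title and was left out, so that group had 2 and the comparisons rest on 17 arrays. The labels give neither the age or strain of the mice, nor the length of treatment, nor whether each replicate was a culture of its own, so the spread behind the p-values may be technical.

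The upper quartile of intensity lay between 333 and 563 on the 17 arrays, against 241 on the array left out. Between 42.8% and 47.6% of probes were detected on each of the 17. Of 10 neuron markers, 8 passed the filter, and their mean level lay between 11.02 and 11.26 on the 8 HCA arrays, against 10.92 to 11.20 on the 9 arrays without HCA. Glial and progenitor markers were also detected. In whole cultures, fewer cells of a type and less RNA per cell cannot be told apart.

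Most of the proteasome genes were detected on every array and varied little between arrays of a group. Levels are normalized log2 intensities, on which a difference of 1 is a 2-fold difference, and levels of different probes were not compared. Of the 40 members that passed, 39 were detected on all 17 arrays. The exception was Psmd6, a lid subunit, detected on 11 of 17 arrays. The 5 members that did not pass were detected on 0 of 17 arrays each: Psma1 and Psma6 of the alpha ring, the ATPase Psmc6, and Psmb8 and Psmb9, which code for the inducible catalytic subunits made under interferon. A probe that is not detected gives no level, and does not show that a gene so central to the core as Psma1 was silent. The spread between arrays of a group, as an SD, had a median of 0.107 over the members that passed, with a range of 0.052 to 0.312. Over all 8922 genes the median was 0.183, and over the brighter 4461 of them it was 0.132.

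NRF1 and NRF2, paired with small MAF proteins, bind the antioxidant response element. Its letters TGACNNNGC were searched on both strands of the 250 bases before each gene's start in RefSeq, build GRCm38.p6, for the 37 of 43 proteasome genes with an entry. They occurred in 5 of these 37 genes (13.5%), against 11.5% of all 27025 genes with an entry. A gene counted if any of its promoters held a match. The other motifs searched, none of which contains another, were TGATGNAA, in 1 of 37 (2.70%) against 3.91%, CCAAT, in 13 (35.1%) against 37.5%, and GGGCGG, in 21 (56.8%) against 35.4%. The 5 genes were Psmb5, Psmb6, Psmc6, Psmd9 and Psmd12. A match is a description of letters, not a site.

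The sequences around 3 of these matches are shown, because NRF1 is the known activator of proteasome genes. Each runs 5′ to 3′ on the gene's strand with the matched letters in capitals, in GRCm38.p6. Psmb5 lies at chr14:54618018-54618058 on the minus strand, Psmd9 at chr5:123228143-123228183 and Psmd12 at chr11:107479278-107479305, both on the plus strand, and in Psmd12 the match is on the opposite strand.
Psmb5: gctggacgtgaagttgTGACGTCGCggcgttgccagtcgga
Psmd9: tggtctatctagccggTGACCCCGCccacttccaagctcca
Psmd12: tctGCTGTGTCAcatttgcccccctcag

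HCA was compared with no HCA at each adaptaquin dose and as the mean over the 3 doses. In that mean, 1 member changed: Psmc3, which was lower with HCA. This is 1 of 40 members (2.50%), where 11.2% of all genes tested were called at an adjusted p under 0.05 (limma, Benjamini-Hochberg over all genes), 475 of them higher and 524 (5.87%) lower. Among the brighter 4461 genes, 11.9% were called, and 1 of the 36 members among them (2.78%). With replicate number as a block, 20.6% of all genes were called, and 1 of 40 members. The members' changes ran between -0.26 and 0.10, with 17 above 0 and 23 below, and a median of -0.012 against -0.007 over all genes. For 0 members did the arrays with and without HCA separate in the same direction at all 3 doses, which held for 4.79% of all genes. A test of any difference among the 6 groups called 0 members (limma F test), where 2.6% of all genes were called.

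The size of what could have been missed is also given by these arrays. For 28 of the 40 members (70.0%) the 95% confidence interval of the mean HCA change lay inside a 1.2-fold change in either direction, as it did for 36.8% of all genes. All 40 intervals of this mean lay inside a 1.5-fold change. The estimate itself was within 10% of no change for 33 of 40 members (82.5%), against 61.7% of all genes. The median absolute change was 0.050 for the members and 0.102 for all genes. Among the brighter 4461 genes, which hold 36 of the members, it was 0.085, against 0.05 for those 36. The interval and 10% shares were set only against all genes, dim ones included. Intervals are narrower where arrays vary less, and both the members' spread and their changes were smaller. Single doses and the interaction with 1 µM adaptaquin were less tightly bounded. For HCA without adaptaquin, 8 of 40 intervals lay inside a 1.2-fold change and 33 inside a 1.5-fold change. At 0.1 µM these counts were 15 and 36, at 1 µM 15 and 39, and for the interaction 1 and 30.

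**Figure D1:**
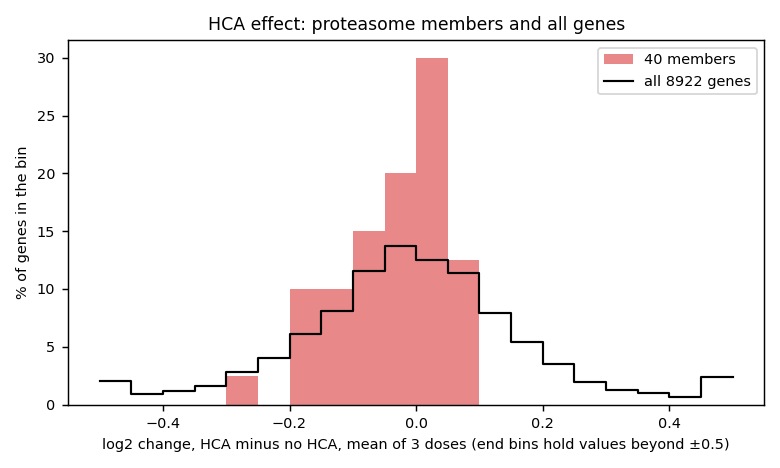
Distribution of the log2 change with HCA, averaged over the 3 adaptaquin doses, as the percentage of genes in each bin; bars are the 40 members and the line is all 8922 genes. The members lie between -0.26 and 0.10.

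At single doses no member was called. HCA against no HCA without adaptaquin called 0 of 40 members, with 0.751% of all genes called. At 0.1 µM it called 0 members, with 1.91% of all genes, and at 1 µM 0 members, with 1.19% of all genes. With the replicate block these shares of all genes were 2.82%, 5.97% and 4.51%, and again 0 members were called at each dose. At an unadjusted p under 0.05, limma gave 2, 1 and 2 members in these comparisons (5%, 2.5% and 5%), against 11.5%, 12.6% and 11.5% of all genes. These members were Psmc3 and Psmg3 without adaptaquin, Psmd2 at 0.1 µM, and Psmc3 and Psmb10 at 1 µM. The arrays of the compared groups did not overlap for 9 members without adaptaquin (22.5%), where 31.8% of all genes were apart. At 0.1 µM this held for 1 member (2.5%) against 16% of all genes, and at 1 µM for 4 members (10%) against 14.9%.

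**Figure D2:**
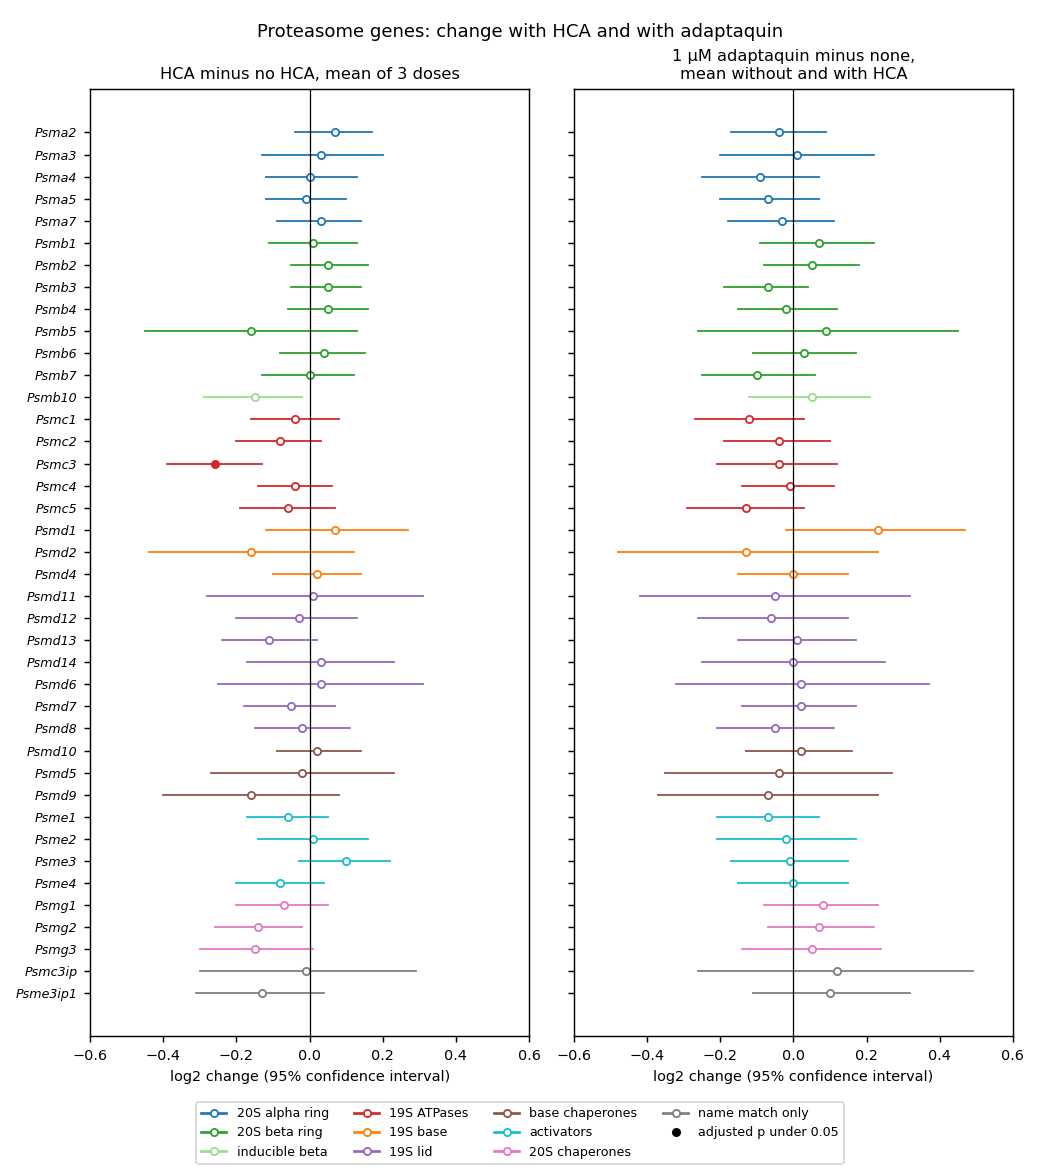
Log2 change of each of the 40 members (rows, coloured by place in the complex) with HCA averaged over the 3 doses (left) and with 1 µM adaptaquin averaged without and with HCA (right); points are limma estimates, lines 95% confidence intervals, and a filled point marks an adjusted p under 0.05. Psmc3 on the left, at -0.26, is the filled point.

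The core was examined first through its catalytic subunits. Psmb5 carries the chymotrypsin-like activity, Psmb6 the caspase-like and Psmb7 the trypsin-like activity. Psmb5 read 8.93 and 8.74 in HCA neurons, against 8.99, 8.83 and 9.39 in untreated neurons. With 0.1 µM adaptaquin it read 8.67, 8.83 and 9.28 with HCA, against 9.37, 8.77 and 9.25 without. With 1 µM it read 9.05, 8.70 and 9.33 with HCA, against 9.11, 8.74 and 9.35 without. The groups overlapped at every dose, and the second array of a group was never the highest. The mean HCA change was -0.16 ± 0.134 (SE; 95% interval -0.45 to 0.13; limma adjusted p = 0.52). Psmb5 differed between replicate numbers (F test of the block, adjusted p = 0.0028), which 7 of 40 members did (17.5%) beside 29.8% of all genes. Arrays numbered 3 lay 0.29 above those numbered 1 in the block fit, and the HCA-only group has no array numbered 3. With the replicate block the mean HCA change of Psmb5 was -0.11 (limma adjusted p = 0.31). Same-numbered pairs had a median difference of -0.05.

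Psmb6 read 13.16 and 13.10 in HCA neurons, against 13.09, 13.14 and 13.07 in untreated neurons. At 0.1 µM adaptaquin it read 13.05, 13.22 and 13.02 with HCA, against 12.97, 13.14 and 13.04 without. At 1 µM the values were 13.19, 13.24 and 13.04 with HCA, against 13.03, 13.19 and 13.17 without. Its groups overlapped at every dose. The mean HCA change was 0.04 ± 0.052 (SE; 95% interval -0.08 to 0.15; limma adjusted p = 0.74).

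Psmb7 read 13.28 and 13.22 in HCA neurons, against 13.14, 13.30 and 13.14 in untreated neurons. Under 0.1 µM adaptaquin, arrays read 13.10, 13.13 and 13.11 with HCA, against 13.30, 13.29 and 13.00 without. Under 1 µM they were 13.10, 13.17 and 13.12 with HCA, against 13.22, 13.19 and 12.96 without. These groups overlapped too, and the mean HCA change was 0.00 ± 0.058 (SE; 95% interval -0.13 to 0.12; limma adjusted p = 0.98). For both Psmb6 and Psmb7 the interval lay inside a 1.2-fold change.

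Psmb10 is the inducible counterpart of Psmb7, and of the 3 inducible subunits it alone passed the filter. It read 9.84 and 9.90 in HCA neurons, against 9.98, 10.10 and 9.94 in untreated neurons. Cultures given 0.1 µM adaptaquin read 9.87, 9.96 and 10.08 with HCA, against 10.15, 9.86 and 10.17 without. Cultures given 1 µM read 9.84, 9.80 and 9.95 with HCA, against 10, 10.04 and 10.26 without. The groups were apart without adaptaquin and at 1 µM and overlapped at 0.1 µM. In 7 of 8 pairs of arrays with the same replicate number the HCA array was the lower one. The mean HCA change was -0.15 ± 0.063 (SE), which did not pass after adjustment (limma adjusted p = 0.14, and 0.096 with the replicate block). A second probe for Psmb10 gave -0.01.

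Interferon-response genes and microglia are listed beside Psmb10 because interferon and immune cells are where inducible subunits are usually found. Of 19 interferon-response genes listed, 8 passed the filter. In the mean HCA effect 3 of these 8 had estimates above 0, with a median of -0.064. With HCA 2 of the 8 fell and 0 rose. Irf1, an interferon-induced transcription factor, fell by 0.40 on the log2 scale (limma adjusted p = 0.0041). Ifi27, another interferon-induced gene, fell by 0.48 (limma adjusted p = 0.012). The call of Irf1 was lost with median scaling and without all arrays numbered 2 or 3 (adjusted p = 0.084, 0.10 and 0.053), and that of Ifi27 without all arrays numbered 2 or 3 or without the first HCA-only array (0.20, 0.13 and 0.05). Among all genes 11.2% were called in the mean HCA effect. The mean level of the 8 interferon-response genes lay between 6.76 and 7.02 on HCA arrays, against 6.87 to 7.28 on arrays without HCA. Of 8 microglia markers none passed the test in either direction, with all 8 estimates above 0 and a median of 0.122. Their mean level lay between 6.30 and 6.66 on HCA arrays (median 6.61), against 6.26 to 6.62 without (median 6.39). That mean includes Fcer1g, which followed replicate number. Fcer1g read 7.28 to 7.35 on arrays numbered 1 and 4.38 to 4.97 on the others. The part of either list in the values of Psmb10 was not tested.

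None of the rest of the core passed the test. The 5 alpha subunits that passed, which form the gated outer rings, had a median HCA change of 0.027, between -0.01 and 0.07. The 7 constitutive beta subunits had a median of 0.036 and ran between -0.16 and 0.05, with Psmb5 at the low end. For none of these 12 genes was the adjusted p under 0.45.

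The ATPase ring held the 1 called gene. Psmc3 codes for one of its 6 ATPases. Psmc3 read 11.37 and 11.49 in HCA neurons, against 11.71, 11.75 and 11.68 in untreated neurons. With 0.1 µM adaptaquin, arrays read 11.54, 11.37 and 11.39 with HCA, against 11.49, 11.74 and 11.72 without. At 1 µM, arrays read 11.48, 11.24 and 11.45 with HCA, against 11.50, 11.76 and 11.74 without. Every HCA array was below every array without HCA when no adaptaquin was given, and again at 1 µM, whereas at 0.1 µM the groups overlapped through the first array of each.

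The HCA change of Psmc3 was -0.28 ± 0.114 without adaptaquin, -0.22 ± 0.102 at 0.1 µM and -0.28 ± 0.102 at 1 µM (SE). The mean over doses was -0.26 ± 0.061 (SE; 95% interval -0.39 to -0.13), which is 16.5% lower, with a limma adjusted p of 0.013, and 0.0097 with the replicate block. Of 8 same-numbered pairs the HCA array was lower in 7, and the differences ran between -0.52 and 0.05 with a median of -0.31. Psmc3 has 1 probe on the array, so no other probe bears on it. The call was lost with median scaling (-0.22, adjusted p = 0.32), without the first HCA-only array (-0.24, 0.052), without all arrays numbered 2 (-0.21, 0.32) and without all arrays numbered 3 (-0.25, 0.12). It was kept in 17 of 20 settings that leave out arrays, with changes of -0.33 to -0.24 in those 17.

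Cell-type markers moved with HCA on the same arrays. Of 7 astrocyte markers 4 fell and 1, Slc1a2, rose, and of 5 progenitor markers 3 fell. Of 3 oligodendrocyte markers 2 fell, and of 8 neuron markers 0 passed the test. Among all genes 11.2% were called, and 20.6% with the replicate block. With the replicate block, 5 astrocyte markers fell, the fifth being Gfap (-0.32, adjusted p = 0.02), and the neuron marker Syt1 (0.21, adjusted p = 0.022) and the oligodendrocyte marker Mbp (0.16, adjusted p = 0.032) rose. The mean progenitor level lay between 9.58 and 10.02 on HCA arrays, against 9.91 to 10.45 on arrays without HCA. The mean oligodendrocyte level lay between 8.10 and 8.45 with HCA, against 8.30 to 8.80 without. The mean astrocyte level lay between 8.29 and 8.58 with HCA, against 8.16 to 8.62 without. That mean includes Slc1a2, whose changes were 1.98, 2.11 and 2.20 at rising adaptaquin dose. The median change of the 7 astrocyte markers was -0.404. The part of these cell-type markers in the change of Psmc3 was not tested.

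**Figure D3:**
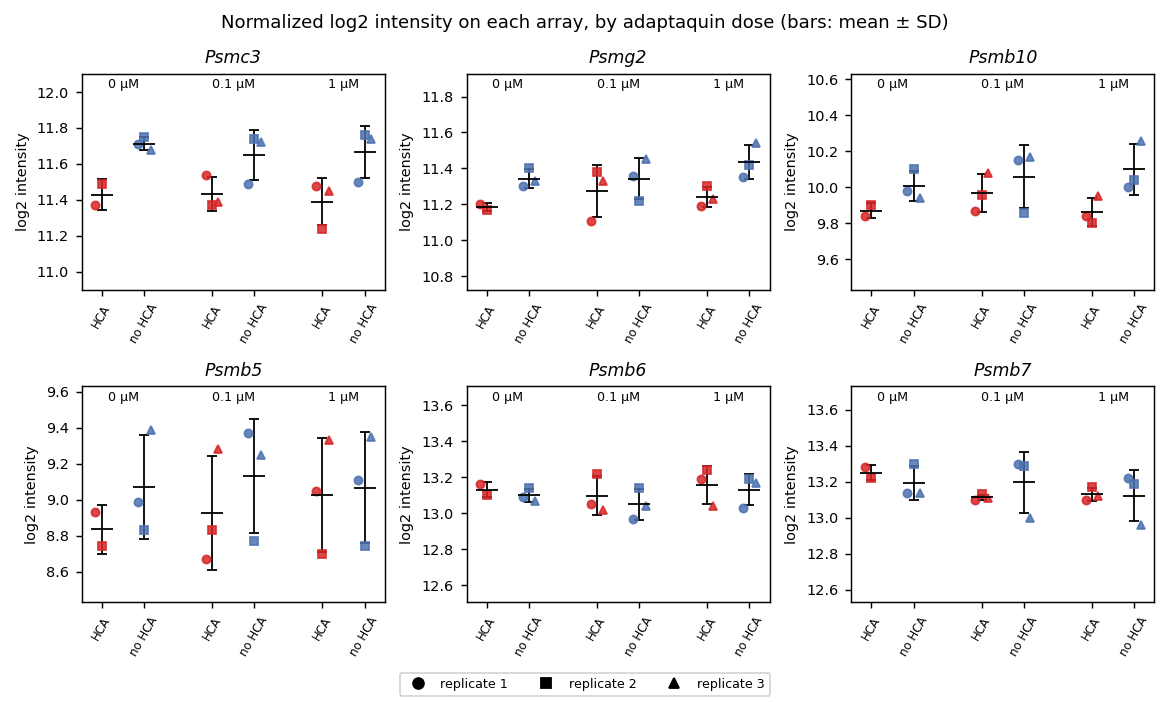
Normalized log2 intensity of 6 genes on each of 17 arrays, by adaptaquin dose, with HCA (red) left of no HCA (blue); marker shape is the replicate number, bars are mean ± SD, and every panel spans 1.2 log2 units. Psmc3 with HCA read 11.24 to 11.54, and the second array of Psmb5 is the highest in no group.

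The other ATPases did not pass the test. The 4 of them that passed the filter had estimates below 0, and with Psmc3 the 5 ran between -0.26 and -0.04 with a median of -0.060. Psmc5 read 11.66 and 11.62 in HCA neurons, against 11.50, 11.55 and 11.60 in untreated neurons. With 0.1 µM adaptaquin it read 11.38, 11.46 and 11.41 with HCA, against 11.43, 11.72 and 11.52 without. With 1 µM it read 11.40, 11.54 and 11.25 with HCA, against 11.60, 11.61 and 11.38 without. HCA arrays were above all untreated arrays in the undosed cultures, and the groups overlapped at both doses. The changes at rising dose were 0.10, -0.14 and -0.14, and their mean was -0.06 ± 0.060 (SE; adjusted p = 0.60). A second probe for Psmc5, also detected on all 17 arrays, gave -0.19, -0.12 and -0.01 at these doses.

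Psmc1 read 11.25 and 11.39 in HCA neurons, against 11.34, 11.36 and 11.48 in untreated neurons. At 0.1 µM adaptaquin it read 11.10, 11.39 and 11.25 with HCA, against 11.10, 11.30 and 11.31 without. At 1 µM the values were 11.20, 11.23 and 11.20 with HCA, against 11.21, 11.37 and 11.21 without. The groups overlapped at each dose, and the mean HCA change was -0.04 ± 0.057 (SE; adjusted p = 0.73).

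The remainder of the regulatory particle did not pass the test. The base scaffold Psmd1, which binds a ubiquitin receptor, read 8.45 and 8.43 in HCA neurons, against 8.66, 8.51 and 8.63 in untreated neurons. Under 0.1 µM adaptaquin, arrays read 8.99, 8.55 and 8.61 with HCA, against 8.69, 8.29 and 8.61 without. Under 1 µM they were 8.79, 8.82 and 8.92 with HCA, against 8.52, 8.43 and 9.0 without. HCA arrays were the lower ones in undosed cultures, and the groups overlapped at both doses. The mean HCA change was 0.07 ± 0.092 (SE; adjusted p = 0.69). Psmd2, the other base scaffold, was -0.49 ± 0.221 at 0.1 µM (adjusted p = 0.37), where its second probe gave 0.13. The 7 lid genes, among them the deubiquitinase Psmd14, had a median of -0.019. Psmd6 changed sign between doses, at -0.42, 0.42 and 0.09, near its detection limit. The ubiquitin receptor Psmd4 was at 0.02 ± 0.056 (SE; adjusted p = 0.85). Psmd5, Psmd9 and Psmd10, chaperones that assemble the base, ran between -0.16 and 0.02 with a median of -0.018. Outside the complex, Psmc3ip was at -0.01 and Psme3ip1 at -0.13, and neither passed the test.

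Among classes with more than 1 measured gene, the assembly factors of the core had the lowest median change. Psmg1, Psmg2 and Psmg3 code for chaperones that guide the alpha ring together. All 3 estimates were below 0, between -0.15 and -0.07 with a median of -0.141, and 0 of 3 passed the test, the smallest adjusted p being 0.12. Psmg2 read 11.20 and 11.17 in HCA neurons, against 11.30, 11.40 and 11.33 in untreated neurons. Cultures given 0.1 µM adaptaquin read 11.11, 11.38 and 11.33 with HCA, against 11.36, 11.22 and 11.45 without. Cultures given 1 µM read 11.19, 11.30 and 11.23 with HCA, against 11.35, 11.42 and 11.54 without. Groups were apart in undosed cultures and at 1 µM. The mean change was -0.14 ± 0.055 (SE; limma adjusted p = 0.12, and 0.076 with the replicate block), the HCA array was lower in 7 of 8 same-numbered pairs, and a second probe gave -0.12. Psmg3 was -0.15 ± 0.071 (SE; adjusted p = 0.22).

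The activators cap the core in place of the regulatory particle. Psme1 and Psme2 form the cytosolic activator, Psme3 the nuclear one, and Psme4 is a large single-chain cap. Their HCA changes ran between -0.08 and 0.10 with a median of -0.025, and 0 of 4 passed the test. Psme3 was the highest of all 40 members, at 0.10 ± 0.060 (SE; adjusted p = 0.36). A dimmer probe for Psme4 gave 0.34. Of the 15 members with several probes, 3 had probes of opposite sign in the mean HCA change. In the HCA change without adaptaquin more members had probes of opposite sign. These were Psmb2, Psmb7, Psmc5, Psmd2, Psmd7, Psmd9, Psmd10, Psmd12 and Psme4. The remaining contrasts were not counted. For 1 µM adaptaquin averaged over HCA, the probes of Psmb7 gave -0.10, 0.07 and 0.13.

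No member was called with adaptaquin. The comparison of 1 µM with no adaptaquin, averaged without and with HCA, called 0 of 40 members, where 0.101% of all genes were called. Without HCA it called 0 members and 0.146% of all genes. With HCA, and for 0.1 µM averaged over HCA, limma called 0 members and 0% of all genes. At an unadjusted p under 0.05 these comparisons gave 0, 0, 2 and 0 members, against 3.52%, 2.22%, 2.73% and 1.86% of all genes. The 2 were Psmd1 (0.40 ± 0.171, SE) and Psmc5 (-0.25 ± 0.111, SE) in HCA neurons, each with an adjusted p of 1. With the replicate block 0 members were called in these 4 comparisons, and 0.224%, 0.235%, 0.0112% and 0% of all genes.

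Changes at 1 µM, averaged over HCA, ran between -0.13 and 0.23, with 18 members above 0 and 22 below and a median of -0.011 against 0.001 over all genes. Psmd1 had the highest value, 0.23 ± 0.115 (SE; 95% interval -0.02 to 0.47), and Psmc5 (-0.13 ± 0.075) and Psmc1 (-0.12 ± 0.071) were low. The second probe for Psmc5 gave 0.05, so its low value rests on the brighter probe alone. For all 3 genes the arrays with 1 µM and those without adaptaquin overlapped when no HCA was given. With HCA, the groups of all 3 genes were apart. For 29 of 40 members (72.5%) the interval lay inside a 1.2-fold change, against 35.4% of all genes. At 0.1 µM the changes ran between -0.14 and 0.23. Arrays of the groups did not overlap for 7 members at 1 µM with HCA (17.5%), where 16.6% of all genes were apart, for 0 members without HCA (6.36% of all genes), and for 0 members in the same direction both without and with HCA (1.01% of all genes). The interaction of HCA with 1 µM adaptaquin was called for 0 members and 0% of all genes (limma), and for 0 members at an unadjusted p under 0.05, against 1.73% of all genes. For Psmc3 the interaction was 0.00 ± 0.153 (SE; 95% interval -0.32 to 0.33).

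**Figure D4:**
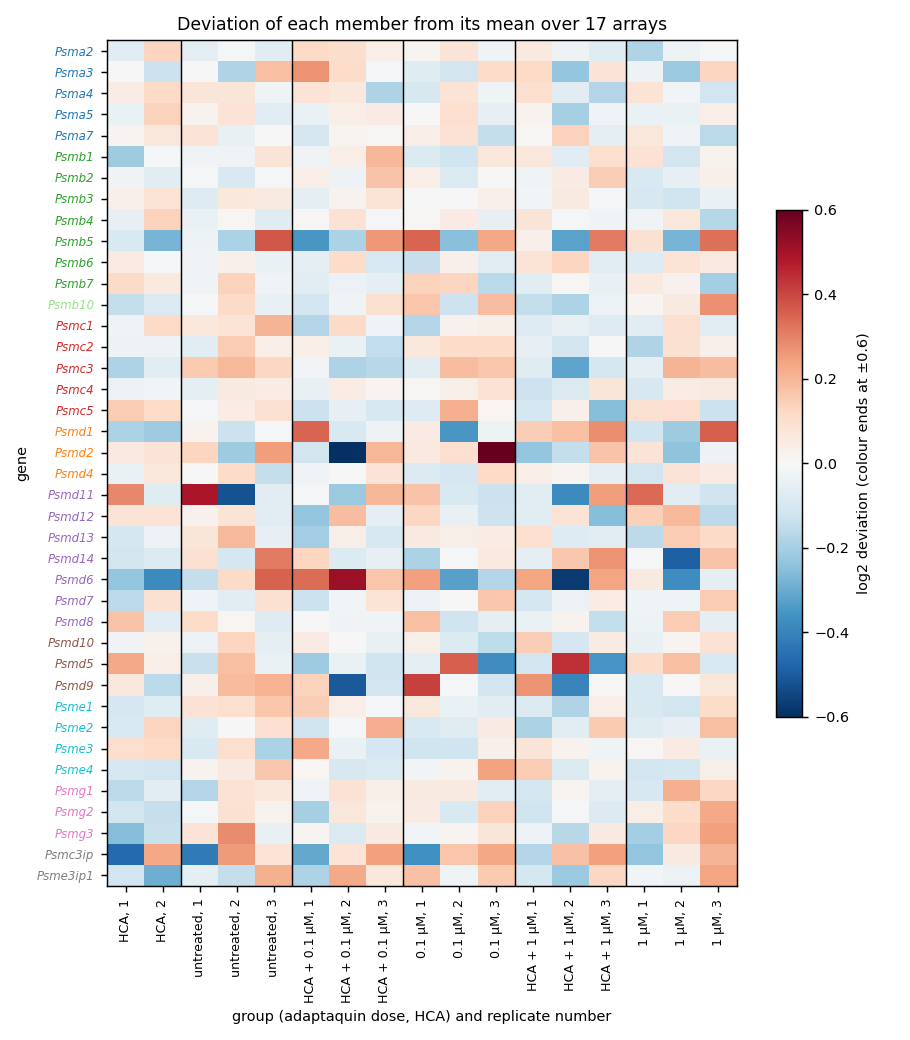
Deviation of each of 40 members (rows, labels coloured by place in the complex) from its own mean over 17 arrays, in log2 units, with arrays grouped by treatment and numbered by replicate. The median deviation over the members stays between -0.049 and 0.069 on every array.

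The median deviation of the members from their own means stayed small on each array. It was between -0.044 and -0.015 on HCA-only arrays, against -0.010 to 0.069 on untreated arrays, and over all 17 arrays it stayed between -0.049 and 0.069. In all 8 same-numbered pairs it was lower on the array with HCA, by differences of -0.085 to -0.004 with a median of -0.037. The median deviation of all genes was lower with HCA in 6 of 8 pairs, with differences of -0.018 to 0.024. With median scaling, the members' value was lower with HCA in 5 of 8 pairs, with differences of -0.223 to 0.208, and that of all genes in 4 of 8, with differences of -0.203 to 0.197. After removal of group means, the correlation between pairs of members over the 17 arrays had a median of 0.04 over 780 pairs, with a range of -0.93 to 0.91. These arrays share replicate numbers, so the correlations are a description.

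Genes that work with the proteasome were also listed. Of 15 partners, among them the maturation protein Pomp and the deubiquitinase Usp14, 8 passed the filter and 0 changed with HCA, with a median of -0.016. Pomp was -0.04 ± 0.040 (SE; adjusted p = 0.57), and Usp14 -0.03 ± 0.158 (SE; adjusted p = 0.94). Of 21 genes that deliver ubiquitinated proteins, such as Vcp and Sqstm1, 9 passed and 0 changed, with a median of 0.021. Of 13 genes for transcription factors and regulators of proteasome genes, 9 passed the filter. In this last list 1 rose with HCA and 0 fell, with a median of 0.154 (11.2% of all genes were called). With the replicate block 3 rose, Mafg and Nfe2l1 among them (20.6% of all genes were called).

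The gene that rose was Mafg, whose small MAF protein pairs with NRF1 and NRF2. Mafg read 11.38 and 11.15 in HCA neurons, against 11.01, 10.82 and 11.05 in untreated neurons. With 0.1 µM adaptaquin, arrays read 11.26, 11.12 and 11.13 with HCA, against 11.06, 10.76 and 11.04 without. At 1 µM, arrays read 11.27, 11.05 and 11.04 with HCA, against 10.95, 10.65 and 10.84 without. Every HCA array was above every array without HCA at the same dose, and the mean change was 0.28 ± 0.069 (SE; adjusted p = 0.018, and 0.00077 with the replicate block). That call was lost with median scaling (0.32, adjusted p = 0.056), without the first HCA-only array (0.24, 0.077) and without all arrays of any one number (0.25 to 0.33, adjusted p of 0.07 to 0.19). Nfe2l1 itself was 0.28 ± 0.088 (SE; adjusted p = 0.055) and passed with the replicate block (0.25, adjusted p = 0.011). Nfe2l1 read 11.35 and 11.34 in HCA neurons, against 11.31, 10.99 and 10.76 in untreated neurons. At 0.1 µM its values were 11.22, 11.37 and 11.19 with HCA, against 11.21, 10.93 and 10.93 without. At 1 µM its values were 11.47, 11.54 and 11.12 with HCA, against 11.25, 11.12 and 10.91 without. The groups were apart in undosed cultures and overlapped at both doses. Nfe2l2, the gene of NRF2, was 0.38 ± 0.184 (SE; adjusted p = 0.22). Nfe2l2 was dim, at a mean level of 5.57 where the median over all genes was 8.625. These 3 estimates were above 0, as were 7 of the 9 in the list, and the median over the proteasome members was -0.012. The list mixes transcription factors with other regulators, so a count of signs over it gives no direction of their activity. Without adaptaquin, 2 others of the list, Nfe2l3 and Fbxw7, were at -0.59 ± 0.315 and -0.38 ± 0.155 (SE), and neither passed the test. At 0.1 µM these 2 were at -0.08 ± 0.281 and -0.10 ± 0.139 (SE). Nfe2l3 was dim too, at a mean level of 5.39. Of the 5 genes with the element's letters, 4 passed the filter. Their HCA changes were -0.16 ± 0.134 for Psmb5, 0.04 ± 0.052 for Psmb6 (adjusted p = 0.74), -0.16 ± 0.111 for Psmd9 (adjusted p = 0.42) and -0.03 ± 0.076 for Psmd12 (SE; adjusted p = 0.85), and none passed the test.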

How the data were processed

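The deposited intensity table covers 18 Illumina arrays, without normalization between them, and gives a detection p-value per probe and array. The authors also deposited log2 values for 17 arrays, which equalled a quantile normalization of the log2 intensities to within 5.0e-09. Per the labels, RNA was taken up in Trizol, column-cleaned and made into biotinylated cRNA. The labels name no scanner software or earlier filter.

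The neqc function of limma 3.58.1 (R 4.3.3) corrected the background, inferred through detection p-values, added an offset of 16 and quantile-normalized 18 arrays. The filter kept 12991 of 25697 probes, those with a detection p-value below 0.01 on 2 or more of 17 arrays. Of all probes, 23978 have 1 gene symbol, 1719 have none and 0 have several. The brightest probe stood for a gene, in 2386 of 8922 genes out of more than 1. The number of arrays limits the precision, and a detection p-value is the only measure of signal over background.

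A model with 1 coefficient per group was fitted in limma (11 degrees of freedom from residuals, 3.22 from the prior). The 9 contrasts were tested two-sided, with Benjamini-Hochberg adjustment within each over all genes, at 0.05. The procedure was tested on simulated data. Same-numbered arrays deviated together (40 pairs, correlations 0.238 to 0.626, against -0.461 to 0.0614 for 80 differently numbered pairs), so replicate number was taken as pairing the arrays, from the data and not from the labels. The block is an alternative fit, as are no background correction, median scaling, other filters and probe rules, the authors' log2 table, the left-out array included, and each array left out.

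The members and gene lists were chosen with earlier results of these data known. Members given with all array values are the 3 with the smallest p in the mean HCA effect and the 3 in the mean 1 µM effect, and the catalytic and inducible beta subunits. Of the partner lists, genes called without the replicate block are named, with Pomp, Usp14, Nfe2l1 and Nfe2l2 whatever their values. Irf1, Ifi27, Slc1a2, Fcer1g, Nfe2l3, Fbxw7 and other members named for a low p or a probe were chosen after their values were seen. The brighter 4461 genes, split at the median level, were also chosen after the data were seen. Symbols of all 45 members matched RefSeq by gene ID. Promoter sequences are RefSeq's, of build GRCm38.p6.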

Additional observations from a re-analysis of the deposited data

How the results depend on the processing

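The counts of members called stayed at 0 in 8 of the 9 contrasts under every setting run. In the mean HCA effect 1 member was called, 0 with median scaling, and 0 to 1 when arrays were left out. With the replicate block, which pairs the arrays, 1 member was called there, as without it, and the block changed no call of a member. It raised the count of all genes called in the mean HCA effect to 1842, against 999 without it, and median scaling lowered it to 418. The median change of the members moved with median scaling to 0.016 for the mean HCA effect, -0.003 for HCA without adaptaquin, -0.006 for HCA at 1 µM, -0.064 for the mean 1 µM effect, -0.058 for 1 µM with HCA and -0.056 for 1 µM without HCA. With the outlier array included it was -0.005 for HCA without adaptaquin.

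When arrays were left out, the median ran between -0.072 and -0.025 for HCA without adaptaquin, -0.033 and 0.026 at 0.1 µM, -0.053 and 0.006 at 1 µM, and -0.033 and -0.002 for the mean over doses. It ran between -0.027 and 0.029 for the mean 1 µM effect, -0.038 and 0.018 without HCA, -0.024 and 0.065 with HCA, -0.027 and 0.033 for 0.1 µM, and -0.016 and 0.074 for the interaction. Single genes near 0 changed sign: with median scaling Psmb10 (-0.06), Psmb5 (-0.01), Psmb6 (-0.02) and Psmg2 (-0.01) at 1 µM, and Psmb7 (0.04) and Psmc1 (0.00) with HCA. With the outlier array Psmb10 (-0.03) and Psmb5 (-0.05) did so at 1 µM, and with the mean of probes Psmb7 (0.04) did. With arrays left out the 1 µM effect ran between -0.03 and 0.12 for Psmb10, -0.02 and 0.06 for Psmb6 and -0.09 and 0.01 for Psmc3. The HCA effect ran between 0.00 and 0.07 for Psmb6 and -0.07 and 0.04 for Psmb7. Nfe2l1 passed with the authors' log2 table (0.27, adjusted p = 0.032), without background correction (0.27, 0.032) and with probes detected on all 17 arrays (0.28, 0.043). The pairs of arrays compared by the members' median deviation were examined with median scaling after the data were seen. The cause of these moves was not tested.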
